A study of Mus musculus with 4 samples.

Results

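The 8 genes described here are Acsl1, Acsl3, Acsl4, Acsl5, Lpcat3, Fads1, Fads2 and Elovl5. They encode enzymes that make polyunsaturated acyl chains, activate long-chain fatty acids and place acyl chains in membrane phospholipids. The synthetases among them also act on other fatty acids, as ACSL3 does on monounsaturated ones. The 8 genes were chosen by name, through the Ensembl identifiers of the listed symbols, out of 53465 rows of the count table. These genes and the pathway lists below were chosen with earlier results of these data known. The shares of all tested genes given beside their counts are thus no test of the 8 genes or of the lists. All 8 had a row, and all 8 were among the 13664 genes that passed the filter on low counts. The libraries are poly(A) RNA of B16, a mouse melanoma cell line. The treated group held 2 libraries, EM-plasma 1 and EM-plasma 2, of cells exposed for 4 h to what the labels call plasma treated with exosome-mimetic nanovesicles (EMs). They were set against 2 control libraries of the same line, control 1 and control 2. No genetic change is named for either group. Whether the plasma was a gas or a blood fraction, and what the controls received, is not given in the sources used here, and neither is whether the libraries came from separate cultures, so that the p-values cover the spread among these 4 libraries alone, and that spread may be technical.

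Ferroptosis is an iron-dependent death in which phospholipids that carry polyunsaturated acyl chains are peroxidised. Desaturases and elongases turn dietary fatty acids into long polyunsaturated ones, acyl-CoA synthetases join them to coenzyme A, and the acyltransferase LPCAT3 inserts them into lysophospholipids. ACSL4, which prefers arachidonic and adrenic acid, and LPCAT3 are known as promoters of ferroptosis, while ACSL3 is known to activate monounsaturated fatty acids that protect from it. Several of these genes are known targets of the sterol-sensing factors SREBP1 and SREBP2 and of the oxysterol receptor LXR.

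Total counts were 46295133 to 46557637 in EM-plasma libraries and 47664388 to 49367932 in control libraries. The control libraries differed from each other more than the treated ones did (chi-square per degree of freedom 2.85 between EM-plasma libraries and 7.59 between controls). All 10 melanocyte lineage markers were tested, at 35.3 to 4111 CPM (read counts scaled to a common library total) in any library. Of 16 markers of other cell types 8 had no read in any library, among them Ptprc, Epcam, Cdh5 and Alb, and none of the 16 exceeded 4.27 CPM. Their summed level was 4.36 to 4.91 CPM in EM-plasma libraries and 3.43 to 3.84 CPM in controls. Most of that sum was Col1a1, at 4.27 and 3.39 CPM in EM-plasma libraries, against 2.56 and 2.62 CPM in control libraries. Its treated libraries were above both controls, and it was not called (edgeR adjusted p = 0.0641). Of the 3 tested markers of other cell types 1 was on the lower side, and 0 were called. In bulk RNA, fewer cells of a kind and less RNA per cell cannot be told apart.

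EM-plasma-treated cells had less of 5 of the 8 transcripts: the synthetases Acsl3 and Acsl4, the acyltransferase Lpcat3, and the desaturases Fads1 and Fads2. The falls were small, from 11.5% for Fads1 to 20.2% for Acsl3. Acsl1, Acsl5 and Elovl5 did not pass the test, and 0 members rose. Genes were called at an adjusted p below 0.05 in edgeR's quasi-likelihood test, adjusted by the Benjamini-Hochberg method over all 13664 genes. That test called 6.21% of tested genes, 2.88% lower and 3.34% higher. Without adjustment, 6 of the 8 were lower and 0 higher at p below 0.05, against 19.5% of all tested genes, 9.84% lower and 9.7% higher. DESeq2, which after its own filter gave 12248 genes an adjusted p and called 2.44% of them lower and 2.01% higher, also called 5 of the 8 lower and 0 higher. The median log2 fold change was -0.18 over the 8 genes and -0.0027 over all tested genes. Among the 4742 tested genes whose mean level lay within that of the 8 (44.3 to 223.6 CPM), a range set after their values were seen, 3.75% were called lower and 2.72% higher. In 6 of the 8 the treated libraries lay on one side of both controls, against 49.1% of all tested genes, and in those 6 the treated libraries were the lower ones, against 24.8%.

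**Figure D1:**
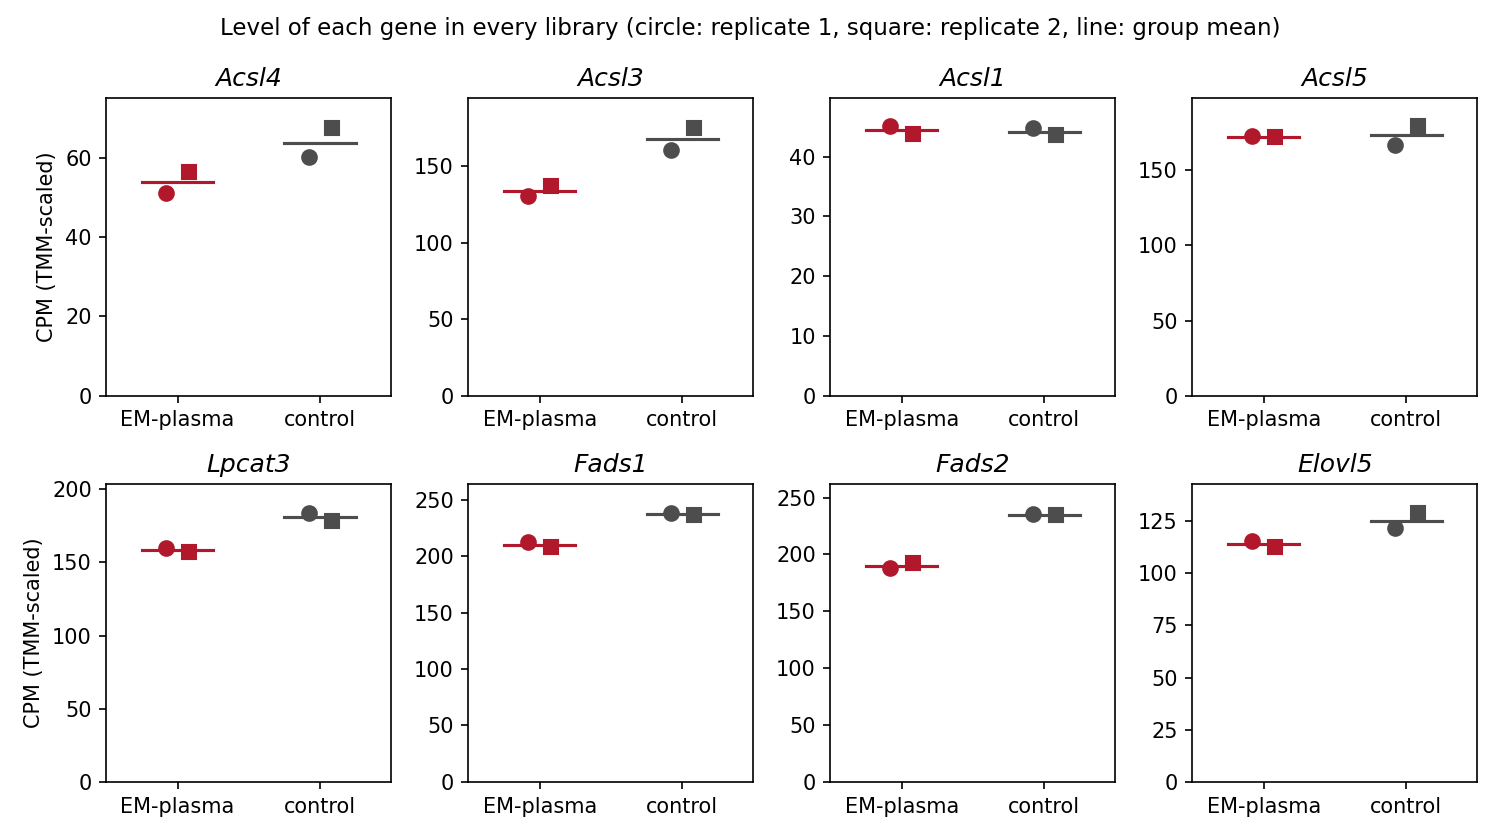
Level of each of the 8 genes in every library in TMM-scaled CPM (y axis, from 0), EM-plasma left and control right, with circles for replicate 1, squares for replicate 2 and a line for the group mean. The treated points lie below both controls for 6 genes. For Acsl1 the groups overlap, and for Acsl5 the treated points lie between the controls.

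Acsl4 (ENSMUSG00000031278; chromosome X, 142317993 to 142390535, minus strand, GRCm38) encodes the synthetase that commits arachidonic acid to phospholipids. It had 51.1 and 56.5 CPM in EM-plasma libraries, against 60.3 and 67.5 CPM in control libraries. The groups did not overlap, but the 3.79 CPM between the higher treated and the lower control library was less than the 5.39 CPM between the treated libraries and the 7.17 CPM between the controls. The means were 53.8 ± 3.81 CPM in EM-plasma and 63.9 ± 5.07 CPM in control (SD, n = 2 each), which is a log2 fold change of -0.25 (SE 0.065, 95% interval -0.38 to -0.11, edgeR adjusted p = 0.0198). Its read counts of 2383 to 3198 carry a counting error of about 2.05% to 1.77%. The call ended when any 1 library was left out, with edgeR adjusted p = 0.587 without EM-plasma 1, 0.061 without EM-plasma 2, 0.0561 without control 1 and 0.334 without control 2. The log2 fold change was -0.18 without EM-plasma 1 and -0.16 without control 2.

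Acsl3 (ENSMUSG00000032883; chromosome 1, 78657825 to 78707743, plus strand) encodes a synthetase of the endoplasmic reticulum and lipid droplets. It had 130.5 and 137 CPM in EM-plasma libraries, against 160.4 and 175 CPM in control libraries. Both treated libraries were lower, and the 23.7 CPM between the groups exceeded the 14.1 CPM between the controls. The mean was 134 ± 4.43 CPM in EM-plasma and 167 ± 9.98 CPM in control (SD, n = 2 each), with a log2 fold change of -0.33 (SE 0.051, edgeR adjusted p = 0.000109). Without control 2 the call ended (log2 fold change -0.26, edgeR adjusted p = 0.0864), and it held without each of the other libraries in turn. Of the exon bases of Acsl3 5.6% are shared with Utp14b on the same strand, so that some reads of the pair cannot be assigned. Utp14b was at 69.8 ± 1.35 CPM in EM-plasma and 77.6 ± 0.333 CPM in control and was not called (edgeR adjusted p = 0.0998).

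Acsl1 and Acsl5 encode the other long-chain synthetases expressed at more than a trace, with wide roles in triglyceride synthesis and fatty acid oxidation. Acsl1 (ENSMUSG00000018796; chromosome 8, 46471037 to 46536051) had 45.2 and 43.8 CPM in EM-plasma libraries, against 44.7 and 43.6 CPM in control libraries, and the groups overlapped. Its log2 fold change was 0.0098, with a 95% interval of -0.12 to 0.14 (edgeR adjusted p = 0.955). Acsl5 (ENSMUSG00000024981; chromosome 19, 55251938 to 55297720) had 173 and 172 CPM in EM-plasma libraries, against 167 and 179.5 CPM in control libraries, so that the treated values fell between the controls. Its log2 fold change was -0.0072, with a 95% interval of -0.11 to 0.092 (edgeR adjusted p = 0.958). For Acsl5 the interval leaves out falls of the size fitted for Acsl3 and Acsl4, and for Acsl1 likewise. Acsl1 shares 9.91% and Acsl5 8.31% of their exon bases with genes on the opposite strand, Gm45244 and Zdhhc6, and the strand setting of the counting is not given in the sources used here.

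Levels of different genes were compared per kilobase of exon, as RPKM. Among the 5 synthetases of the family, with the brain-enriched Acsl6 included, Acsl5 took 44.7% and 43.4% of the summed RPKM in EM-plasma libraries, against 39.6% and 39.4% in control libraries. Acsl3 took 37.7% and 38.5% in EM-plasma libraries, against 42.5% and 42.7% in control libraries. Per kilobase, Acsl5 thus ranked above Acsl3 in both treated libraries and below it in both controls. The order in the controls turns on the exon lengths of 4864 bases for Acsl5 and 4357 bases for Acsl3, since in CPM Acsl5 was above Acsl3 in every library. Acsl4 held 11.9% and 12.8% of the sum in EM-plasma libraries, against 12.9% and 13.3% in control libraries, and Acsl6 held at most 0.193% in any library. The summed RPKM of the 5 genes was 79.4 and 81.6 in EM-plasma libraries, against 86.7 and 93.8 in control libraries. An exact two-sided permutation test over libraries gave p = 0.333 for the share of Acsl5, the share of Acsl3 and the sum, which is the smallest value that groups of 2 allow. The ratio of Acsl4 to Acsl3 was 0.316 and 0.333 in EM-plasma libraries, against 0.303 and 0.312 in control libraries (exact permutation p = 0.333), and both treated ratios lay above both control ratios. The ratio of Acsl4 to Lpcat3, the pair known as promoters of ferroptosis, was 0.193 and 0.218 in EM-plasma libraries, against 0.199 and 0.228 in control libraries, and the groups overlapped (exact permutation p = 0.667).

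**Figure D2:**
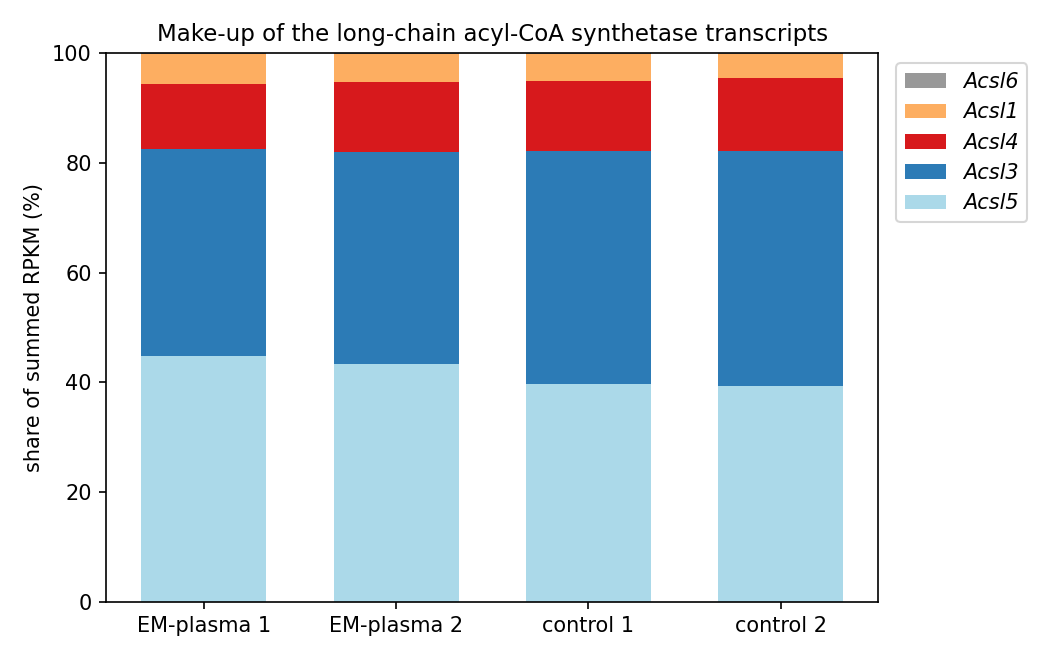
Share of the summed RPKM of the 5 long-chain acyl-CoA synthetase genes in each library (y axis, percent), with EM-plasma libraries left of controls. Acsl5 holds 44.7% and 43.4% in EM-plasma libraries and 39.6% and 39.4% in controls, and per kilobase Acsl3 changes places with it.

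Lpcat3 (ENSMUSG00000004270; chromosome 6, 124663027 to 124704418, plus strand) encodes the lysophospholipid acyltransferase that prefers polyunsaturated acyl-CoA. It had 160.2 and 157 CPM in EM-plasma libraries, against 184 and 179 CPM in control libraries. The 18.4 CPM between the groups exceeded the 5.02 CPM between the controls and the 3.34 CPM between the treated libraries. The mean was 159 ± 2.36 CPM in EM-plasma and 181 ± 3.55 CPM in control (SD, n = 2 each), with a log2 fold change of -0.19 (SE 0.047, edgeR adjusted p = 0.012). Leaving out any 1 library moved this only between -0.21 and -0.18, but the call ended each time, with edgeR adjusted p = 0.28 without EM-plasma 1, 0.415 without EM-plasma 2, 0.0536 without control 1 and 0.0917 without control 2. Of its exon bases 10.2% are shared with Emg1 on the opposite strand, which was at 139 ± 0.852 CPM in EM-plasma and 133 ± 0.566 CPM in control and was not called (edgeR adjusted p = 0.537).

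Fads2 and Fads1 encode the desaturases of the first and the last double bond on the way from linoleic to arachidonic acid. On chromosome 19 they lie head to head, Fads2 (ENSMUSG00000024665; 10062765 to 10101746) on the minus strand and Fads1 (ENSMUSG00000010663; 10182888 to 10196877) on the plus strand, with 81.1 kb and 0 protein-coding genes wholly between them. Fads2 had 188 and 193 CPM in EM-plasma libraries, against 236 and 234 CPM in control libraries. Among the 8 genes it had the widest separation of the groups, 41.9 CPM, with 4.61 CPM between the treated libraries and 1.14 CPM between the controls. The mean was 190.2 ± 3.26 CPM in EM-plasma and 235 ± 0.804 CPM in control (SD, n = 2 each), with a log2 fold change of -0.31 (SE 0.045, edgeR adjusted p = 5.16e-05). It was the only one of the 8 whose call held without each library in turn, with log2 fold changes from -0.32 to -0.29 and edgeR adjusted p from 0.0104 to 0.0438.

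Fads1 had 212 and 208 CPM in EM-plasma libraries, against 238 and 237 CPM in control libraries. The 24.3 CPM between the groups exceeded the 4.61 CPM between the treated and the 1.63 CPM between the control libraries. The mean was 210.0 ± 3.26 CPM in EM-plasma and 237 ± 1.15 CPM in control (SD, n = 2 each), with a log2 fold change of -0.18 (SE 0.045, edgeR adjusted p = 0.0159). Without a library the log2 fold change ran from -0.19 to -0.16, and the call ended each time, with edgeR adjusted p = 0.324 without EM-plasma 1, 0.478 without EM-plasma 2, 0.0509 without control 1 and 0.109 without control 2. The RPKM ratio of Fads1 to Fads2 was 0.774 and 0.739 in EM-plasma libraries, against 0.692 and 0.691 in control libraries. Both treated ratios lay above both control ratios (exact two-sided permutation p = 0.333, the smallest that groups of 2 allow).

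Elovl5 (ENSMUSG00000032349; chromosome 9, 77917364 to 77984519, plus strand) encodes the elongase that lengthens polyunsaturated acyl chains between the desaturase steps. It had 115 and 112 CPM in EM-plasma libraries, against 121 and 129 CPM in control libraries. The treated libraries were the lower ones, but the 6.01 CPM between the groups was less than the 7.38 CPM between the controls. The mean was 114 ± 2.06 CPM in EM-plasma and 125 ± 5.22 CPM in control (SD, n = 2 each), with a log2 fold change of -0.13 (SE 0.051, 95% interval -0.24 to -0.03, edgeR adjusted p = 0.122), and it was not called. Fits without 1 library gave log2 fold changes from -0.18 to -0.089.

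**Figure D3:**
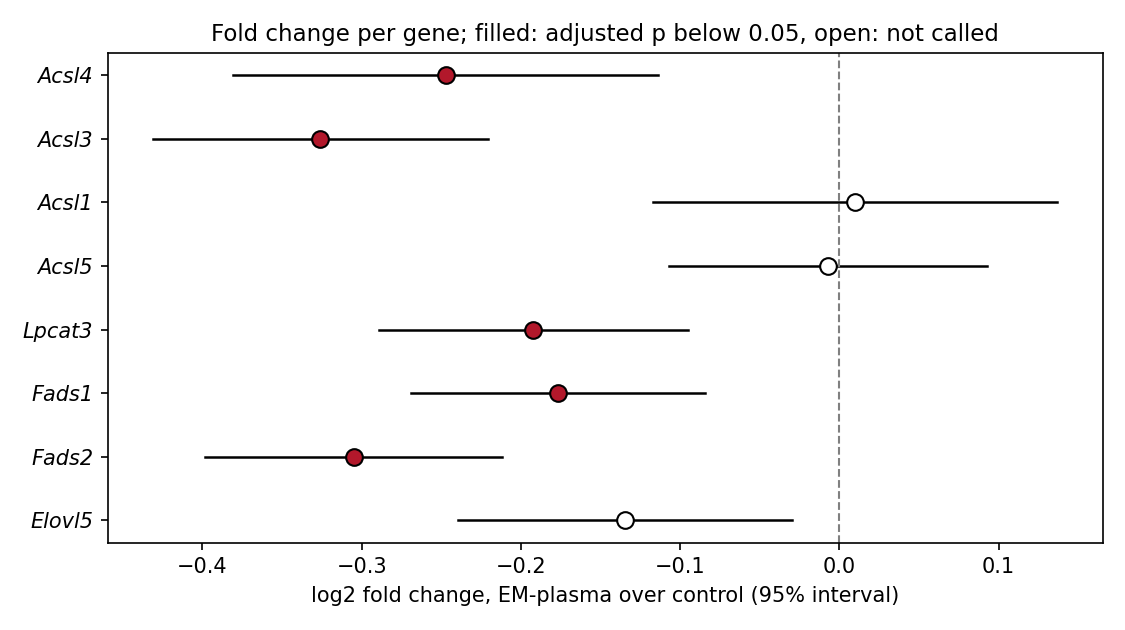
Log2 fold change of EM-plasma over control for each gene (x axis) with its 95% interval from edgeR's quasi-likelihood fit, filled where the adjusted p was below 0.05. The 5 filled genes lie between -0.33 and -0.18, and the intervals of Acsl1 and Acsl5 span 0.

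**Figure D4:**
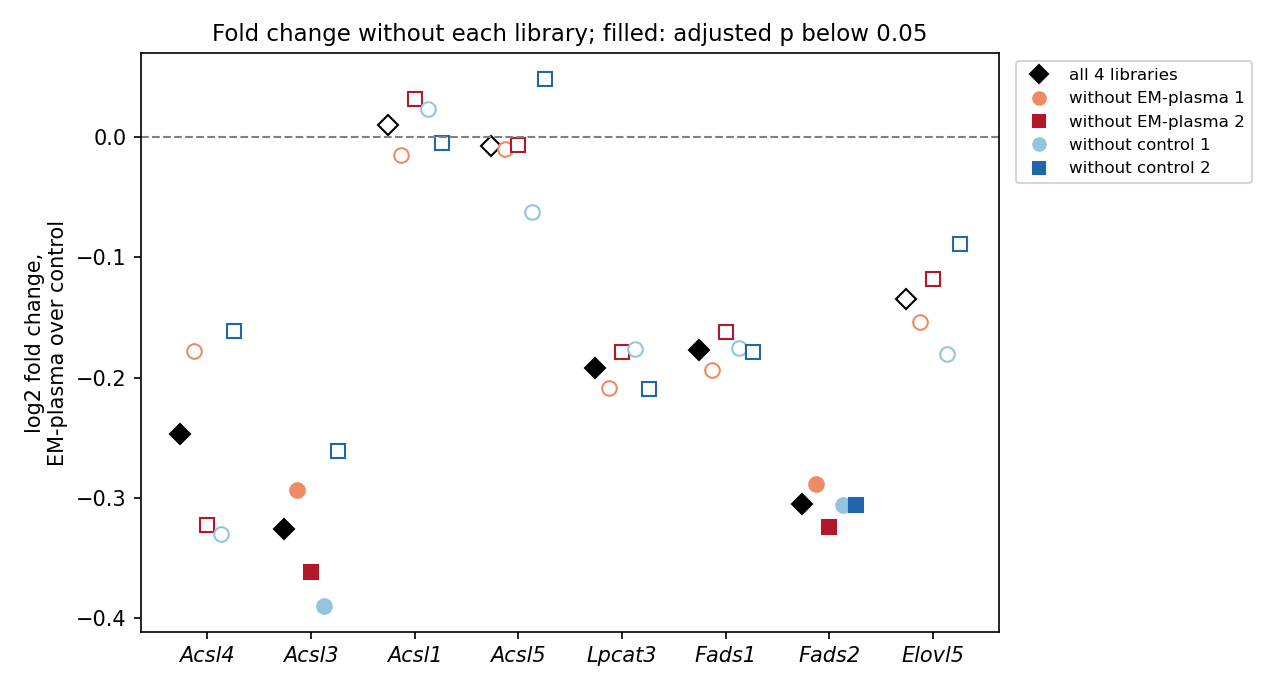
Log2 fold change of EM-plasma over control (y axis) for each gene with all 4 libraries and without each library in turn, filled where the adjusted p was below 0.05. Fads2 is filled in every fit, Acsl3 in all but the fit without control 2, and Acsl4, Lpcat3 and Fads1 with all libraries alone.

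Averaged over the 4 libraries, Fads2 was the most abundant of the 8 per kilobase at 64.5 RPKM (57 to 71.5), followed by Lpcat3 at 52 RPKM (48 to 56.2) and Fads1 at 46.5 RPKM (43.2 to 49.5). The ranges of Lpcat3 and Fads1 overlapped. Acsl5 at 35.5 RPKM, Acsl3 at 34.6 RPKM and Elovl5 at 33.9 RPKM also overlapped each other in that order. Acsl4 lay apart at 10.9 RPKM (9.46 to 12.5), and Acsl1 was lowest at 4.23 RPKM (4.16 to 4.31). Acsl1, the lowest, has the longest exon model, 10483 bases against 3268 to 5405 for the other genes, and an exon model longer than the transcripts in use lowers a level per kilobase.

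Promoter windows of 300 bases, from 250 before to 50 after the start site, were available for 7 of the 8 genes in the RefSeq table of GRCm38.p6. Those of the called genes in that table are printed because their transcripts fell together. Each is given 5′ to 3′ on the strand of its gene, with capitals on CCAAT boxes (CCAAT or ATTGG, the site of NF-Y) and GC boxes (GGGCGG or CCGCCC, the site of Sp1), 2 factors known to act with SREBPs.
Fads2, chr19:10101454-10101753, minus strand: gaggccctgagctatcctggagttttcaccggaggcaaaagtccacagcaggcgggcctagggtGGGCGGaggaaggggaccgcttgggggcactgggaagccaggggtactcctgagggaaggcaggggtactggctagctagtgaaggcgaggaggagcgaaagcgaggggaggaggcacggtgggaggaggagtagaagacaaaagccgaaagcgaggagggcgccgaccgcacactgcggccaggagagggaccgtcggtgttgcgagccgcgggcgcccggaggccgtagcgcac
Lpcat3, chr6:124662854-124663153, plus strand: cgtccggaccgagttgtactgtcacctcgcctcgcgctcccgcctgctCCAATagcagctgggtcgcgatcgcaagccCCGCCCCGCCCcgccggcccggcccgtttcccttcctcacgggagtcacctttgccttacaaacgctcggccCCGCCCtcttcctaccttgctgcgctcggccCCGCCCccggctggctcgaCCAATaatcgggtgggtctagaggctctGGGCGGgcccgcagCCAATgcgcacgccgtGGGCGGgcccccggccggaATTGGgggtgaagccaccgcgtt
Acsl3, chr1:78657575-78657874, plus strand: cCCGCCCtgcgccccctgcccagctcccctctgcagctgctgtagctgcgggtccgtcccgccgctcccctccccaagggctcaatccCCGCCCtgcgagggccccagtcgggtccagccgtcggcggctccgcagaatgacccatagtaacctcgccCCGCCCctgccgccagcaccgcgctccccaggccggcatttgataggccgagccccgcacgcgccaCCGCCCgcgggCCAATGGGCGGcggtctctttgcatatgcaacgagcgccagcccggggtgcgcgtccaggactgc
Acsl4, chrX:142390486-142390785, minus strand: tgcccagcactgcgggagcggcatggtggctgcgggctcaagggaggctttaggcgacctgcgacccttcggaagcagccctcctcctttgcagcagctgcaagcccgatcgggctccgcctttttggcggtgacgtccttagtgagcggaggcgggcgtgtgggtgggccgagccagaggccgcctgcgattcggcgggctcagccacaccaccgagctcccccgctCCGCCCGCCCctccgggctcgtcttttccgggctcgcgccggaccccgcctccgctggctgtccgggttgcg

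Lpcat3 held 4 CCAAT boxes and 6 GC boxes in its window, and Acsl3 held 1 CCAAT box, directly followed by a GC box, among 5 GC boxes. Fads2 held 1 GC box and Acsl4 held 2 that overlap, and neither held a CCAAT box. Searched on both strands, the CCAAT box was in 5 of the 8 windows of these genes (Acsl1 has 2 windows) and in 37.4% of all 32851 windows, and the GC box was in 5 of 8 and in 35.7%. The sterol regulatory element core TCACNCCAC was in 1 of 8, the downstream window of Acsl1, and in 1.24% of all windows. The E-box CACGTG was in 1 of 8, that of Elovl5, and in 7.15% of all. The LXR direct repeat, the PPAR direct repeat and the antioxidant response element core TGACNNNGC were in 0 of 8, against 0.0152%, 0.0396% and 12.4% of all windows. Of these motifs, the windows of the 4 called genes thus held only CCAAT and GC boxes. The CCAAT box was not particular to them. Each of the genes that were not called also had it, with 2 in Acsl1, 2 in Elovl5 and 1 in Acsl5. The windows of Fads2, Lpcat3, Acsl3 and Acsl4 had 67% to 74% G and C, against a median of 52.7% over all windows. Among the genes that were not called, the upstream window of Acsl1 also had 74% and held 7 GC boxes, and the other windows had 50% to 57.7%.

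Around these 8 genes, 100 tested genes of the same pathway, in 8 lists, showed 10 lower and 1 higher, against 2.88% and 3.34% of all tested genes, and their median log2 fold change was -0.0059. Before adjustment, at the same threshold, there were 18 lower and 6 higher, where all tested genes had 9.84% and 9.7%, and DESeq2 called 9 lower and 0 higher. The 10 lower ones were in 4 lists: other desaturation and elongation genes, monounsaturated fatty acid synthesis, transcription regulators and acyl-CoA thioesterases. In those fits that left out a library 2 to 5 were called lower.

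**Figure D5:**
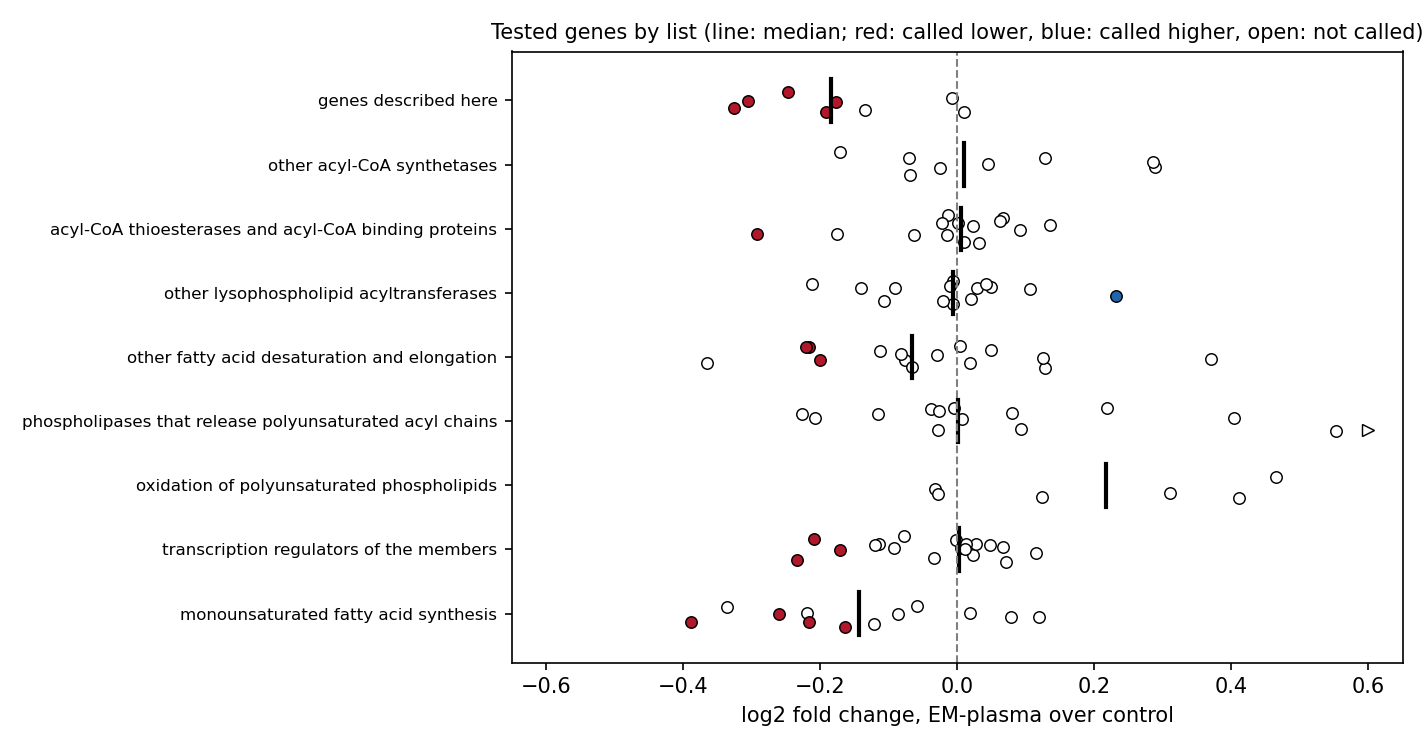
Log2 fold change of EM-plasma over control (x axis) of each tested gene, by list, with a line at the list median, red for called lower and blue for called higher. The 8 genes have a median of -0.18, and Lpcat1 is the only blue point. The 1 gene beyond 0.6 is drawn at the edge, and Elovl6 is in 2 lists.

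Of 15 tested genes of other desaturation and elongation steps 3 fell and 0 rose. Elovl6, which lengthens saturated and monounsaturated chains, had 116 and 113 CPM in EM-plasma libraries, against 127 and 139.5 CPM in control libraries (log2 fold change -0.22, edgeR adjusted p = 0.0112). Tecr, the reductase of the last step of every elongation cycle, had 135 and 125 CPM in EM-plasma libraries, against 154 and 148 CPM in control libraries (log2 fold change -0.22, edgeR adjusted p = 0.00735). Cyb5b, a cytochrome b5 of the outer mitochondrial membrane, had 449 and 459 CPM in EM-plasma libraries, against 511 and 533 CPM in control libraries (log2 fold change -0.20, edgeR adjusted p = 0.00275). The electron donors of the desaturases in the endoplasmic reticulum, Cyb5a and the reductase gene Cyb5r3, were not called (edgeR adjusted p = 0.779 and 0.326). In each of the 3 called genes every treated library was below both controls. The call of Tecr ended when any 1 library was left out (edgeR adjusted p from 0.069 to 0.486), and those of Elovl6 and Cyb5b held only without control 1, with adjusted p up to 0.329 and 0.283. Fads3, a neighbour of the same gene family, had 12 to 16 reads in any library. Elovl2, another elongase gene, had 0 reads, which allows up to 0.0648 CPM. The elongase gene Elovl4 was read in every library and was not called (edgeR adjusted p = 0.433).

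The other acyl-CoA synthetases showed 0 of 8 tested genes called by edgeR, with 1 lower and 2 higher before adjustment and 0 called by DESeq2. The most abundant, the transporter-synthetase Slc27a4, had 76.5 and 75.4 CPM in EM-plasma libraries, against 71.3 and 67.8 CPM in control libraries (edgeR adjusted p = 0.197). Among 14 tested thioesterases and acyl-CoA binding proteins 1 fell, the thioesterase gene Acot11 (17.1 and 17 CPM in EM-plasma libraries, against 21 and 20.6 CPM in control libraries; edgeR adjusted p = 0.0244). Among 14 tested lysophospholipid acyltransferases other than Lpcat3, 0 fell and 1 rose, with 2 lower before adjustment and 0 called by DESeq2. That was Lpcat1, which favours saturated chains, with 40.5 and 41 CPM in EM-plasma libraries, against 34.6 and 34.9 CPM in control libraries (log2 fold change 0.23, edgeR adjusted p = 0.0258). Its treated libraries were above both controls, the opposite side from Lpcat3, and whether the fold changes of these genes differ was not tested. The calls of Acot11 and Lpcat1 ended when any 1 library was left out (edgeR adjusted p from 0.0769 to 0.282 and from 0.0726 to 0.392) and in DESeq2 (adjusted p = 0.0892 and 0.0721).

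Genes that release or oxidise polyunsaturated chains showed no called change in edgeR. Of 14 tested phospholipase and lipase genes 0 passed, with 1 lower and 2 higher before adjustment and 0 called by DESeq2. The most abundant, Prdx6, a peroxiredoxin with phospholipase activity, had 179 and 186 CPM in EM-plasma libraries, against 174 and 171 CPM in control libraries (edgeR adjusted p = 0.367). Of 6 tested oxidation genes 0 passed, with 0 before adjustment and 0 called by DESeq2. Pebp1, a scaffold that directs lipoxygenase to phospholipids, had 232 and 235 CPM in EM-plasma libraries, against 247 and 229 CPM in control libraries (edgeR adjusted p = 0.806). Por and Cyb5r1, oxidation genes of the same list, were also read in every library and not called. Por had 123 and 123 CPM in EM-plasma libraries, against 132 and 121 CPM in control libraries (edgeR adjusted p = 0.795). Cyb5r1 had 42.2 and 43.9 CPM in EM-plasma libraries, against 39.6 and 39.4 CPM in control libraries (edgeR adjusted p = 0.279). The lipoxygenase genes themselves were nearly without reads. Of 7 lipoxygenase genes in the table, Alox5, Alox12, Alox12b and Alox12e had 0 reads in every library, which allows up to 0.0648 CPM in any one of them. Alox15 had 0 and 0 reads in EM-plasma libraries, against 2 and 0 in control libraries. Alox8, the only one tested, had 16 and 34 reads in EM-plasma libraries, against 24 and 15 in control libraries, and Aloxe3 had 7 and 6 reads in EM-plasma libraries, against 15 and 4 in control libraries.

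Among 18 tested regulators known to act on these genes 3 fell and 0 rose, with 4 lower and 0 higher before adjustment and 3 lower and 0 higher by DESeq2. Srebf1, whose SREBP1 product drives desaturases and elongases, had 246 and 234 CPM in EM-plasma libraries, against 295 and 260.5 CPM in control libraries (log2 fold change -0.21, edgeR adjusted p = 0.0116). Srebf2, the cholesterol-directed paralog, had 289 and 277 CPM in EM-plasma libraries, against 349 and 317 CPM in control libraries (log2 fold change -0.23, edgeR adjusted p = 0.00217). Insig1, which holds SREBPs in the endoplasmic reticulum and is itself their target, had 156 and 153 CPM in EM-plasma libraries, against 168 and 179.6 CPM in control libraries (log2 fold change -0.17, edgeR adjusted p = 0.0316). The treated libraries were below both controls in each of these 3 genes. The call of Srebf1 ended when any 1 library was left out (edgeR adjusted p from 0.0763 to 0.395), and its log2 fold change was -0.12 without control 1 and -0.29 without control 2. The call of Srebf2 held only without EM-plasma 1, and that of Insig1 only without control 1, with adjusted p up to 0.226 and 0.527. The LXR genes Nr1h2 and Nr1h3 were both tested and not called, though Nr1h3 had only 14 to 18 reads in any library. The PPAR genes Ppara and Pparg had at most 1 and 5 reads and were not tested. The third PPAR gene, Ppard, had 95.9 and 93.3 CPM in EM-plasma libraries, against 99.6 and 87.9 CPM in control libraries, and was not called (edgeR adjusted p = 0.939).

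In monounsaturated fatty acid synthesis 4 of 12 tested genes fell and 0 rose, with 5 lower and 1 higher before adjustment and 4 lower and 0 higher by DESeq2. They were Scd1, Scd2, Elovl6 and Acly, the last of which supplies acetyl-CoA from citrate. The desaturases Scd1 and Scd2, which make oleate and palmitoleate, had log2 fold changes of -0.39 and -0.26, and their calls held without each library in turn. Acly had 535 and 555 CPM in EM-plasma libraries, against 623 and 598 CPM in control libraries (log2 fold change -0.16, edgeR adjusted p = 0.0147), and its call ended when any 1 library was left out (edgeR adjusted p from 0.0664 to 0.559). Fasn and Acaca, of the same list, were not called (log2 fold change 0.019 and -0.058, edgeR adjusted p = 0.861 and 0.517). Me1 was on the higher side and not called (log2 fold change 0.12, edgeR adjusted p = 0.157). The median log2 fold change of this list was -0.14, close to that of the 8 genes. Whether the polyunsaturated and monounsaturated genes differ in their fold changes was not tested.

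The tested genes whose 4 library values lay nearest to those of each called member were found by the root mean square difference of log2 CPM, centred per gene, over 4 libraries, among 9189 other genes with a mean of at least 10 CPM. Dclk1 and Trp53inp1 were nearest to Acsl3, at 0.0095 and 0.014. Ift74 and Klhl24 were nearest to Acsl4, at 0.011 and 0.013. Kirrel and Slc9a3r1 were nearest to Lpcat3, at 0.0028 and 0.0061, and Myadm and Cnnm2 to Fads1, at 0.0043 and 0.0053. Nipal3 and Rab13 were nearest to Fads2, at 0.0079 and 0.0091. None of these 10 genes is in the pathway lists. Cnnm2 and Rab13 were not themselves called (edgeR adjusted p = 0.127 and 0.0548). Only 4 values per gene were compared, over 9189 genes, and whether any of these genes share regulation was not tested.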

How the data were processed

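The labels' protocols describe a stranded Illumina library kit after poly(A) selection. GRCm38 is the build named in the submitters' processing notes, which also list CASAVA, TopHat2 2.1.1, HTSeq and edgeR without saying what each did. Neither the annotation release nor the strand setting is given in the sources used here. The authors deposited whole-number read counts per gene and, per sample, a scaled signal. Each deposited signal equalled its count times 1 constant per library, within 5e-07, and served only to check the columns. Symbols were found for 53274 of 53465 rows. The others held 0.0459% to 0.0526% of a library's counts.

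Counts were filtered with filterByExpr, scaled by TMM and tested with edgeR 4.0.16 (R 4.3.3) by its quasi-likelihood F test, with the legacy dispersion and group as the only term. The test was two-sided, and p-values were adjusted by the Benjamini-Hochberg method over 13664 genes. Called genes had an adjusted p below 0.05. CPM are per TMM-scaled total of the tested genes, and RPKM divide them by the merged exon length of GENCODE mouse release 21. SE is the absolute log2 fold change over the square root of F. The steps were checked on simulated counts. There, 34 of 73 genes with a 1.2-fold change were called in the right direction. The same held for 53 of 64 with a 1.5-fold and 54 of 63 with a 2-fold change. A gene that was not called may thus still have changed by a small amount. Alternatives were DESeq2 1.42.0, RLE scaling, library totals, other filters, the newer dispersion, a replicate block and leaving out each library.

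The floor of a gene without reads was 3 reads, 0.0608 to 0.0648 CPM per library. Floors cover counting error only. Named genes beyond the 8 were the called genes of the pathway lists, the most abundant gene of a list without a called one, and the nearest genes. A few more (unread, overlapping, marker, regulator or other uncalled pathway genes) were chosen after their values were seen. The members and lists were chosen with earlier results of these data known.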

Additional observations from a re-analysis of the deposited data

How the results depend on the processing

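With 2 libraries a group, calls rested on a variance shared across genes. Where 1 library was left out, the lone library of its group was assumed to vary like the other group. RLE scaling, library totals, a minimum mean of 5 CPM, the newer dispersion and DESeq2 each called the same number of the 8 genes lower, 5. Over all genes 849 were called, against 545 by DESeq2, whose own filter left 12248 genes, 14 with no filter on low counts and 71 to 547 without 1 library. Of the 8 genes 0 were called lower with no filter and 1 to 2 without 1 library. With no filter 22906 genes entered and the total degrees of freedom were 5.36, against 27.5. Without a control library they were 5.71 and 5.27. Without an EM-plasma library the biological coefficient of variation was 5.01%, against 4%. In those fits the total degrees of freedom were 14081 and 14097, so that the variance was taken fully from all genes. Calls that held or ended there do not reflect each gene's own spread. Other pathway genes called lower numbered 10, against 1 with no filter and 2 to 5 without 1 library. Those called higher numbered 1, against 0 with no filter or by DESeq2, 2 with a minimum mean of 5 CPM and 0 to 1 without 1 library.

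Direction changed only for genes near 0. Without 1 library Acsl1 ran from -0.015 (EM-plasma 1) to 0.032, with -0.0049 without control 2. Acsl5 was at 0.0038 with library totals, 0.0029 with a minimum mean of 5 CPM and ran from -0.062 to 0.048 (control 2) without 1 library. Pebp1 ran from -0.079 to 0.024 (control 1). For the other 6 of the 8 genes all alternatives kept the direction.

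The labels give both groups replicate numbers 1 and 2 but name nothing shared by equal numbers. Deviations of same-numbered libraries correlated at 0.211 across genes. With a replicate block 1683 genes were called, with 17 other pathway genes lower and 4 higher, and 6 of the 8 genes lower. The one added was Elovl5 (adjusted p = 0.0297). In that fit the variance was taken fully from all genes (total degrees of freedom 13664). Of the 7 lipoxygenase genes, only Alox8 had enough reads to be tested.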
